A study of Callithrix jacchus with 39 samples.

Results

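The muscle-restricted regions described here were 205 stretches of the marmoset genome with an H3K27ac peak in all 4 libraries of heart and skeletal muscle and in at most 1 of the 12 libraries of colon, kidney, liver, pancreas, spleen and stomach. Peaks of the 4 muscle lists were merged wherever they shared at least 1 bp, which gave 55501 regions, and 11115 of these held a peak in all 4 muscle libraries. The 205 were 1.84% of the 11115. Of them, 120 (1.08% of the 11115) had no peak in any of the 12 other libraries and 85 had a peak in exactly 1. Just outside the threshold, 92 regions had a peak in 2 of the other libraries. All 16 H3K27ac lists merged together gave 139484 regions.

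Chromatin immunoprecipitation and sequencing (ChIP-seq) had mapped 2 histone marks in 8 organs of the marmoset, a New World primate, with 16 libraries for H3K27ac and 15 for H3K4me3. Each tissue had 2 numbered replicates per mark, except that heart had 1 H3K4me3 library (replicate 2). The groups compared carried a tissue name and no treatment. The labels used here state no strain, age, sex, heart chamber or muscle, nor whether the replicates came from different animals, so the spread between replicates may be technical. Peak lists hold no read totals, so depth was unknown and an absent peak means only that none was called. In whole tissue, a weak or missing peak in fewer cells of a type and a weaker mark in each cell cannot be told apart. Heart had the shortest H3K27ac lists of the series (26689 and 24590 peaks, against 37118 and 34890 in skeletal muscle and 30663 to 51554 elsewhere), which bears on every count that requires a heart peak.

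H3K27ac is an acetyl group on histone H3 that marks active promoters and active enhancers, the distant elements that switch genes on in particular cells. H3K4me3 is a trimethyl group on the same histone, concentrated at promoters. Heart and skeletal muscle are both striated: their cells contract through sarcomeres, ordered arrays of actin and myosin filaments controlled by calcium. They share much of the sarcomere, calcium-handling and energy machinery, while each has its own versions of many of these proteins, and they arise from different embryonic sources. The comparison addresses which active elements the striated tissues hold in common and the other organs lack. Positions are given in the build calJac3. No gene was assigned to a region and the tissue labels were not checked against marker genes, because the gene tables used here describe another assembly.

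Most of the 11115 regions active in both striated tissues were active everywhere: 7820 (70.4%) had a peak in all 12 other libraries. The number of regions fell from 120 with none to 85 with 1, was 92 with 2, 99 with 3 and 121 with 4, and then climbed to 1061 with 11. A region was called promoter-like if an H3K4me3 peak of any of the 3 muscle H3K4me3 libraries overlapped it, and enhancer-like otherwise. Of the 205 muscle-restricted regions, 122 were enhancer-like (59.5%) and 83 promoter-like. The share was 76.6% without H3K4me3 replicate 2 of skeletal muscle, and 90.2% if only regions with H3K4me3 in every muscle library were called promoter-like. Muscle H3K4me3 was found at 90.8% of all 11115 regions and at 40.5% of the muscle-restricted ones. The enhancer-like share was 62.5% of the 120 regions with no other library and 55.3% of the 85 with 1, stayed at 63.0% and 60.6% with 2 and 3, and was 2.03% where all 12 others had a peak.

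**Figure D1:**
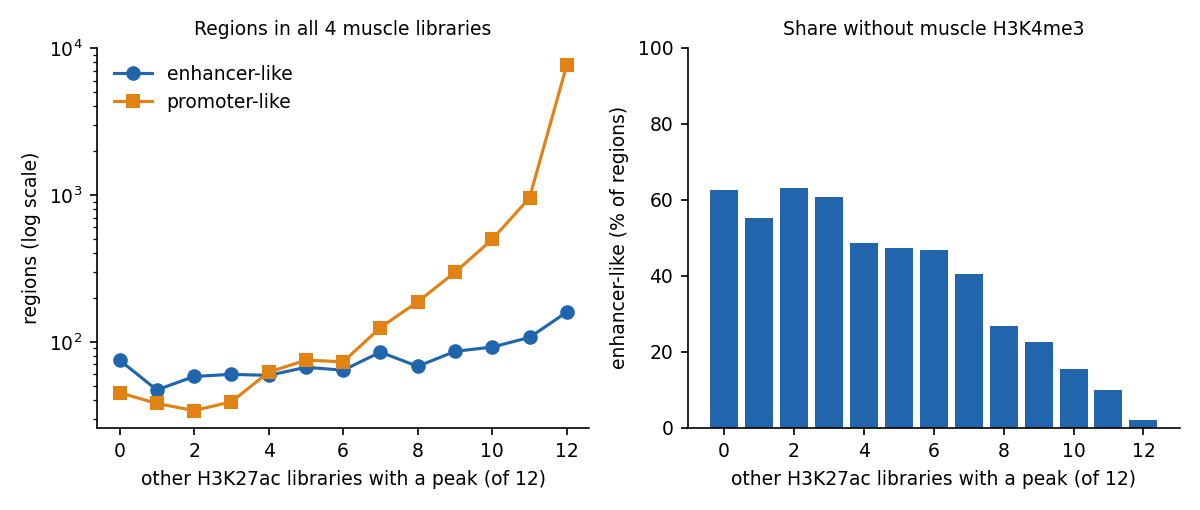
Regions with H3K27ac in all 4 muscle libraries by the number of the 12 other H3K27ac libraries with a peak: left, number of enhancer-like and promoter-like regions on a log scale; right, percentage that were enhancer-like. Narrowly shared regions were mostly enhancer-like (62.5% of the 120 with no other library), and the 7820 regions shared with all 12 were nearly all promoter-like.

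The regions were chosen by H3K27ac of the same 8 tissues, and the 2 marks often lay together (muscle H3K4me3 at 90.8% of all 11115 regions). H3K4me3 itself had no part in choosing them and was found at them more often in the striated tissues. A peak overlapped 22.0% of the 205 regions in heart, and 11.7% and 38.5% in skeletal muscle replicates 1 and 2. In the other tissues the 12 values lay between 2.4% (spleen, replicate 1) and 10.7% (stomach, replicate 2), so every muscle library lay above every other library, skeletal muscle replicate 1 only narrowly. Averaged per tissue, the share was 22.0% in heart and 25.1% in skeletal muscle, against 7.24% ± 2.26 (SD, n = 6 tissues) elsewhere. The difference of 16.3 percentage points gave p = 0.0357 in a two-sided exact permutation test over the 28 ways to choose 2 of 8 tissues, the smallest p this design allows, and 0.107 after Benjamini-Hochberg adjustment over 3 planned tests, so it did not pass at 0.05. Because H3K27ac of these tissues chose the regions, a muscle excess was favoured in advance, and no conclusion is drawn from the p-value. The difference was 8.82 and 10.04 percentage points without heart H3K27ac replicate 1 or 2, where the regions themselves changed, and 9.59 without H3K4me3 replicate 2 of skeletal muscle.

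The same difference, computed after the data were examined for regions in all 4 muscle libraries of wider use, was 17.2 percentage points at the 120 regions with no other library (exact permutation p = 0.0357, adjusted over 6 tests 0.0714). At the 85 with 1 the muscle mean was 27.4% against 12.4% elsewhere, with the same p-values. At the 454 regions with 2 to 5 other libraries it was 7.01 (35.02% against 28.01%; adjusted exact permutation p = 0.161). With 6 to 11 others it was -0.16, and with all 12 it was -1.22 (95.1% against 96.3% ± 1.36, SD, n = 6). The excess of H3K4me3 in muscle was measured at the narrowly shared regions and was near 0 at the widely shared ones, although none of the 6 adjusted p-values passed 0.05. The groups were made by counting H3K27ac in the other tissues, so the grouping itself favoured such a fall. No conclusion is drawn from these p-values.

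**Figure D2:**
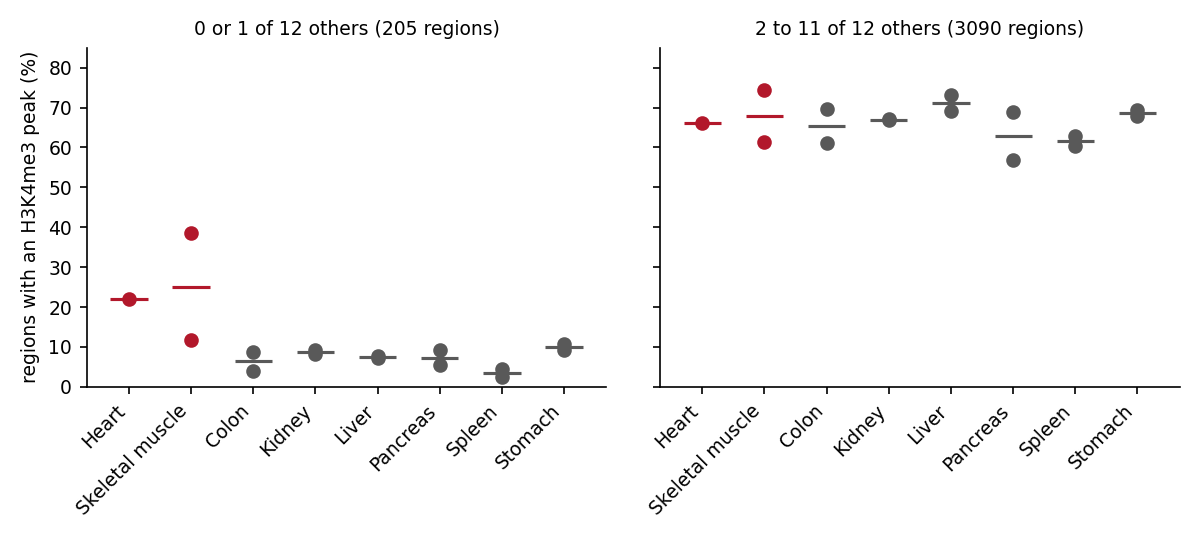
Percentage of regions overlapped by an H3K4me3 peak in each library (points; bars are tissue means), with muscle in red, for the 205 muscle-restricted regions (left) and for the 3090 regions with 2 to 11 other H3K27ac libraries (right). The muscle points lie between 11.7% and 38.5% on the left, above the other tissues (2.4% to 10.7%); on the right they lie among the others or, for 1 skeletal muscle library, just above them.

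Among the 83 promoter-like regions, H3K4me3 was found in 1 of the 3 muscle libraries at 38, in 2 at 25 and in all 3 at 20. Both tissues carried it at 44 regions, skeletal muscle alone at 38 and heart alone at 1, and 35 of the 38 rested on skeletal muscle replicate 2 only. That library had the longest muscle H3K4me3 list (24424 peaks, against 16850 in replicate 1 and 18231 in heart) and gave 79 of the 83 regions their peak; the part of list length in this count was not tested. Where present, the mark covered a median of 999 bp in that library, 441 bp in replicate 1 and 691 bp in heart. In 55 of the 83 promoter-like regions (66.3%) no other tissue had H3K4me3, against 0.68% of the 10005 promoter-like regions with 2 or more other H3K27ac libraries. H3K27ac of the other tissues set these groups apart, so this contrast was favoured in advance and is a description only. At the opposite end, 16 of the 83 had H3K4me3 in at least 6 of the 12 other libraries despite H3K27ac in at most 1 of them. Of the 122 enhancer-like regions, 120 had no H3K4me3 in any of the 15 libraries and 2 had it in another tissue only.

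H3K4me3 in all 3 muscle libraries and in no other marked 6 of the 205 regions, against 10 (0.09%) of all 11115. These 6 had both marks in every muscle library, and the balance of H3K27ac between the tissues differed among them. The highest-ranked, on chromosome 11 from 130324217 to 130326490, had H3K27ac over 661 and 729 bp in heart and 2154 and 1843 bp in skeletal muscle. Its H3K4me3 covered 575 bp in heart and 621 and 1299 bp in skeletal muscle. At chromosome 1 from 198083349 to 198085235, H3K27ac covered 777 and 317 bp in heart and 1675 and 1887 bp in skeletal muscle, and H3K4me3 spanned 1481, 868 and 1755 bp. Both regions were wider in skeletal muscle than in either heart library.

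The regions at chromosome 2 from 153258662 to 153260083 (462 and 604 bp of H3K27ac in heart, 1251 and 1205 bp in skeletal muscle) and chromosome 19 from 33575452 to 33577113 (438 and 523 bp, 1503 and 1662 bp) were also wider in skeletal muscle. The other two each had 1 H3K27ac peak elsewhere. At chromosome 8 from 11570120 to 11573936, shared with liver replicate 2, H3K27ac covered 413 and 818 bp in heart and 3759 and 3817 bp in skeletal muscle. At chromosome 9 from 17858407 to 17860048, shared with pancreas replicate 2, the order was turned round, with 1301 and 1642 bp in heart and 429 and 384 bp in skeletal muscle. Its H3K4me3 was also wider in heart (1642 bp) than in skeletal muscle replicates 1 and 2 (1599 and 570 bp), though the gap to replicate 1 was small.

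Among the 120 regions without a peak in any of the 12 other libraries, joined within 12 kb, the 6 loci with the largest mean covered length were described. All 6 were promoter-like, with H3K4me3 in skeletal muscle replicate 2 over 0.30 kb (locus 5) to 3.07 kb (locus 4). Skeletal muscle replicate 1 had no H3K4me3 at any of them, and heart had it at locus 4 only. In all 6 both skeletal muscle libraries lay above both heart libraries in H3K27ac. Picking by mean length over the 4 libraries favours loci with wide skeletal muscle peaks, so this order is a description only. Locus 1, chromosome 2 from 204192149 to 204198256, had 0.80 and 0.39 kb of H3K27ac in heart and 5.93 and 5.88 kb in skeletal muscle (mean 3.25 ± 3.07 kb, SD, n = 4 libraries). Its H3K4me3 covered 2.93 kb in skeletal muscle replicate 2 and was not called in the other muscle libraries, and 1 library of another tissue held 0.39 kb. The spread of this locus was almost wholly between the tissues and not between replicates.

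Locus 2, chromosome 1 from 200523298 to 200527343, had 0.52 and 1.68 kb in heart and 3.58 and 4.05 kb in skeletal muscle. Its lowest percentile of fold enrichment over the 4 lists was the highest of all 205 regions (70.5). Locus 3, chromosome 2 from 99353205 to 99357300, had 1.29 and 0.89 kb in heart and 3.43 and 4.02 kb in skeletal muscle. Locus 4, chromosome 22 from 37375888 to 37379364, joined 2 regions with 0.98 and 1.52 kb in heart and 3.22 and 3.33 kb in skeletal muscle. Of the 6 loci it was the one with H3K4me3 in heart (1.48 kb), beside 3.07 kb in skeletal muscle replicate 2. Loci 5 and 6, chromosome 10 from 58508798 to 58512780 and chromosome 15 from 66352603 to 66356481, held 0.37 to 0.82 kb in heart libraries and 3.19 to 3.75 kb in skeletal muscle libraries.

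**Figure D3:**
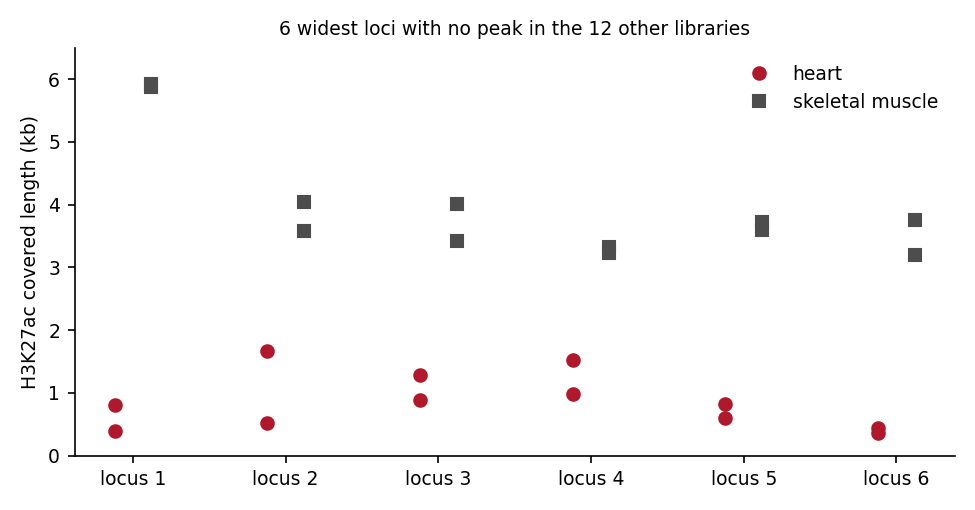
H3K27ac covered length in kb at the 6 loci with the largest mean among the 120 regions without a peak in any of the 12 other libraries, with 1 point per library for heart (circles) and skeletal muscle (squares). Every skeletal muscle point (3.19 to 5.93 kb) lies above every heart point (0.37 to 1.68 kb).

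Among the enhancer-like regions without a peak in the other 12 libraries, 6 were chosen by the lowest percentile rank of fold enrichment over the 4 lists, where a rank of 100 is the strongest peak of a list. The first, chromosome 1 from 150561931 to 150562896, had H3K27ac over 739 and 935 bp in heart and 811 and 648 bp in skeletal muscle, with ranks of 69.8, 77.3, 84.9 and 82.7. A second of the 6 lay beside it, from 150563117 to 150564321 (643 and 439 bp in heart, 1098 and 737 bp in skeletal muscle), and the pair lay 115 and 114 kb from the nearest muscle H3K4me3. Heart and skeletal muscle overlapped in length at the first of these neighbours, and skeletal muscle was longer at the other.

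On chromosome 16, the region from 74469504 to 74472226 covered 1756 and 814 bp in heart and 2417 and 1533 bp in skeletal muscle, and the region from 70589925 to 70590943 covered 391 and 520 bp against 684 and 755 bp. The region on chromosome 4 from 164882530 to 164884450 (839 and 1659 bp, 1742 and 1858 bp) lay 295 kb from the nearest muscle H3K4me3. The sixth, chromosome 10 from 383204 to 383986, covered 303 and 566 bp in heart and 612 and 478 bp in skeletal muscle. Among these 6 enhancer-like regions, heart and skeletal muscle libraries overlapped in length at 3.

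Among the promoter-like regions chosen by the same rank, loci 2 and 3, the wider region of locus 4 and the chromosome 11 region above were joined by 2 narrower ones. The region on chromosome 10 from 41588748 to 41590523 had 1088 and 1217 bp of H3K27ac in heart and 1494 and 394 bp in skeletal muscle, with H3K4me3 over 1063 bp in heart and 764 bp in skeletal muscle replicate 2. The region on chromosome 11 from 127192102 to 127193041 had 466 and 661 bp in heart and 635 and 940 bp in skeletal muscle. It was promoter-like through 45 bp of a peak in skeletal muscle replicate 1 alone.

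Across all 205 regions H3K27ac peaks were narrower in heart than in skeletal muscle. The median covered length was 520 and 487 bp in the heart libraries and 1006 and 1016 bp in the skeletal muscle libraries. Both skeletal muscle libraries exceeded both heart libraries in 135 regions (65.9%), both heart libraries exceeded both skeletal muscle libraries in 9 (4.39%), and the tissues overlapped in 61. Skeletal muscle was above in 39.5% of the 3090 regions with 2 to 11 other libraries and in 35.3% of the 7820 with all 12. Heart was above in 15.6% and 16.1% of them, so the imbalance was larger at the muscle-restricted regions. It was also larger in promoter-like regions (65 of 83, 78.3%) than in enhancer-like ones (70 of 122, 57.4%). These shares are descriptions of the H3K27ac values that chose the regions and carry no test.

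The rank of fold enrichment was also lower in heart. It was taken within lists of different length, so it does not measure a difference in strength between the tissues. The part of list length in these ranks was not tested. The median percentile rank of a region's best peak within its own list was 40.5 and 31.7 in heart and 61.3 and 60.4 in skeletal muscle. Skeletal muscle ranked above heart in 115 regions and heart above skeletal muscle in 10. Within each of these lists, regions shared with all 12 other libraries ranked far higher (82.3 and 81.7 in heart, 86.3 and 85.9 in skeletal muscle), but 98.0% of those were promoter-like. Enhancer-like muscle-restricted regions ranked 39.9 and 27.9 in heart and 56.5 and 52.6 in skeletal muscle. Enhancer-like regions with 2 to 11 others were near, at 40.3, 31.5, 51.7 and 45.2 in that order. Promoter-like muscle-restricted regions ranked 42.5, 37.4, 69.7 and 69.0. Promoter-like regions with 2 or more others ranked higher, at 77.9, 77.7, 83.3 and 83.1.

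**Figure D4:**
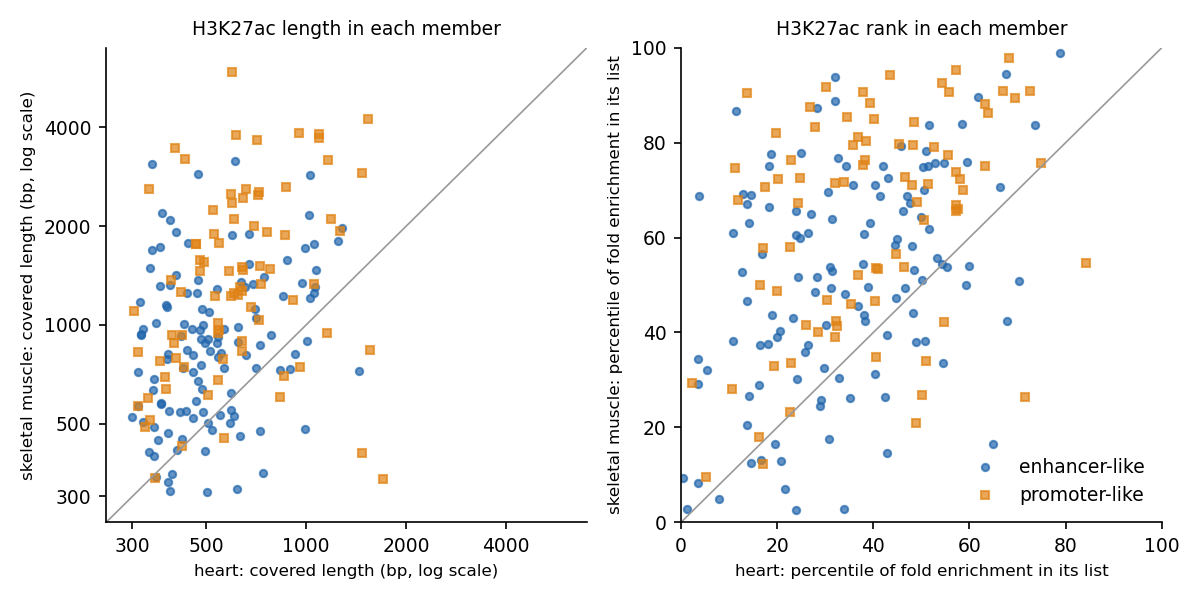
Mean of the 2 heart libraries (x axis) against mean of the 2 skeletal muscle libraries (y axis) for each of the 205 regions: left, H3K27ac covered length in bp on log scales; right, percentile of fold enrichment within the list. Most points lie above the line of equality. By length, both skeletal muscle libraries exceeded both heart libraries in 135 regions, and the opposite held in 9. Points below the line also include regions where the libraries of the 2 tissues overlapped.

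The 9 regions where both heart libraries exceeded both skeletal muscle libraries in covered length comprised 5 enhancer-like and 4 promoter-like ones. The chromosome 9 promoter described above was 1 of them. The region on chromosome 5 from 134029835 to 134031734, with 1 other library, covered 1841 and 1278 bp in heart and 790 and 892 bp in skeletal muscle. The enhancer-like region on chromosome 8 from 40147154 to 40149114 covered 1722 and 1164 bp in heart and 833 and 618 bp in skeletal muscle. The enhancer-like region on chromosome 4 from 164179850 to 164180987, in none of the 12 others, covered 904 and 1081 bp in heart and 337 and 623 bp in skeletal muscle. These 3 were picked after their values were seen.

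Skeletal muscle had a far larger restricted catalogue than heart, and the shared regions took different portions of each. With at most 1 other library, 6486 regions had a peak in both skeletal muscle libraries and no heart library, and 566 in both heart libraries and no skeletal muscle library. The 205 shared regions were 23.9% of the 856 regions in both heart libraries and at most 1 other, and 2.83% of the 7246 in both skeletal muscle libraries and at most 1 other. Heart replicate 1 alone was missing at 313 further regions and heart replicate 2 alone at 242, whereas skeletal muscle replicates 1 and 2 were missing at 33 and 52. Leaving out heart replicate 1 or 2 raised the 205 to 526 or 445, and leaving out skeletal muscle replicate 1 or 2 raised it to 246 or 259. Each omission also drops a required muscle library, and the cause of the larger rise with heart was not tested.

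The single exceptions among the other libraries were spread over tissues. Of the 85 regions with 1 other peak, 21 had it in spleen, 19 in pancreas, 17 in kidney, 14 in liver, 12 in stomach and 2 in colon. In liver, 13 of the 14 came from replicate 2, the longest list of the series, and in kidney 12 of 17 came from replicate 2. Allowing both libraries of exactly 1 other tissue gave 38 further regions: 15 in liver, 7 in kidney, 6 in pancreas, 5 in colon, 3 in spleen and 2 in stomach.

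Enhancer-like muscle-restricted regions lay farther from H3K4me3 peaks than more widely shared ones. The median distance to the nearest H3K4me3 peak of a muscle library was 38.5 kb (quartiles 12.6 and 93.0 kb) for the 121 of 122 with such a peak on their sequence. Within 5 kb lay 11 (9.09%), and 55 (45.5%) were beyond 50 kb. The 746 enhancer-like regions with 2 to 11 other libraries lay nearer, with a median of 14.5 kb, 27.1% within 5 kb and 25.5% beyond 50 kb.

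The regions were scattered singly, and regions active in skeletal muscle alone were often close by. Joined within 12 kb, the 205 formed 196 clusters, of which 187 held 1 region and 9 held 2. A region with peaks in both skeletal muscle libraries, no heart library and at most 1 other lay within 12 kb of 99 (48.3%): 60.2% of promoter-like and 40.2% of enhancer-like ones. The same held for 18.9% of the 3090 regions with 2 to 11 other libraries, for 29.9% of the 746 enhancer-like ones among them, and for 8.90% of the 7820 with all 12. A heart-only region lay within 12 kb of 5 (2.44%), and of 1.64% of the enhancer-like ones. It did so for 1.65% of the regions with 2 to 11 others, 2.82% of the enhancer-like ones among them and 0.46% with all 12. There were 566 heart-only and 6486 skeletal-muscle-only regions in all, so the shares near each kind are not on one scale.

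On assembled chromosomes lay 200 of the 205, led by chromosome 1 (20), chromosome 5 (18) and chromosome 10 (17). As a share of the regions found in all 4 muscle libraries, chromosomes 14 (3.39%) and 19 (3.36%) were highest. Chromosome X held 1 of the regions (0.49%) and chromosome Y held 0 of its 12. The regions had a median length of 1357 bp (440 to 6108), against 1110.5 bp with 2 to 11 other libraries and 1431 bp with all 12. Promoter-like ones had a median of 1674 bp, against 1351 bp for promoter-like regions with 2 or more others. Enhancer-like ones had 1234 bp, against 1332 bp for enhancer-like regions with 2 to 11 others.

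No difference was detected between the striated pair and other tissue pairs in how much the pair shared. The share of regions in all 4 libraries that were restricted to the pair was 1.84% for heart with skeletal muscle, against 1.57% ± 1.67 (SD, n = 27 pairs), a difference of 0.28 percentage points (two-sided exact permutation p = 0.857, adjusted 0.857). It ranked 7 of 28 by that share. Colon with stomach had 7.22% (1092 regions), kidney with liver 4.79% (649) and pancreas with stomach 1.64% (239). Overlap of enhancer-like regions was 32.3% for the striated pair, against 29.4% ± 8.97 (SD, n = 27 pairs; difference 2.91 percentage points, exact permutation p = 0.821, adjusted 0.857). The overlap difference turned to -4.86 without H3K27ac replicate 2 of heart. Heart regions were then all those of 1 list, while other tissues still needed a peak in both replicates. The difference in restricted share turned slightly negative (lowest -0.14) in 6 of the 16 omissions of 1 library. Without heart replicate 1 or 2 that difference was 2.31 or 1.87 (exact permutation p = 0.107 and 0.143). Leaving out a library means that pairs with its tissue need 1 library fewer than all other pairs. The differences in restricted share under omissions thus compare pairs under unequal rules, and no conclusion is drawn from their sign or p-values. The main p-values do not show that the pair behaved like the others, since the pairs share tissues and list lengths differed widely.

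Seen from heart, skeletal muscle was nevertheless the partner with the largest restricted set. With heart, the regions in all 4 libraries of the pair and at most 1 of the 12 others numbered 205 for skeletal muscle, 68 for liver, 58 for spleen, 46 for kidney, 38 for pancreas, 17 for stomach and 15 for colon, 3.01-fold more than the next. From skeletal muscle, liver came first with 411 and heart second with 205, ahead of spleen (148), pancreas (144), kidney (133), colon (113) and stomach (37). With the 20000 strongest peaks of every list, heart came first for skeletal muscle (134, against 98 for liver), and the lead of skeletal muscle for heart shrank to 134 against 109 for spleen. Leaving out heart replicate 1 gave 526 for heart with skeletal muscle, against 441 for liver, and without heart replicate 2 heart and liver tied at 445. After either omission, heart with skeletal muscle needed 1 library fewer than liver with skeletal muscle. These counts follow unlike rules, and no change of order is concluded from them. Both orders share the heart or the skeletal muscle libraries among all partners and are given without a test.

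**Figure D5:**
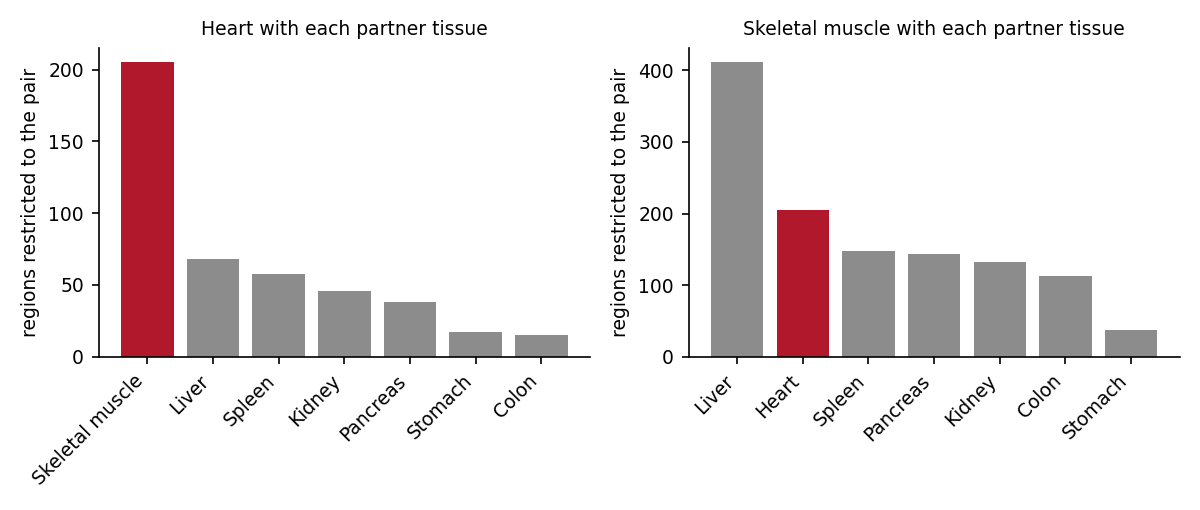
Number of H3K27ac regions restricted to a pair of tissues (all 4 libraries of the pair, at most 1 of the 12 others), for heart (left) and skeletal muscle (right) with each other tissue; the striated partner is in red. Skeletal muscle leads for heart with 205 against 68 for liver, and liver leads for skeletal muscle with 411 against 205 for heart. Without heart replicate 1 the counts were 526 for heart and 441 for liver, but the heart pair then needed 1 library fewer than the liver pair.

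The restricted sets and general enhancer overlap gave different orders. Of the enhancer-like regions of heart, skeletal muscle peaks overlapped 47.5%, against 51.4% ± 8.15 (SD, n = 6) for the other tissues, among which liver had 58.7% and colon 37.3%. Of the enhancer-like regions of skeletal muscle, heart peaks overlapped 17.1%, against 18.1% ± 4.38 (SD, n = 6), with liver highest at 25.2%. By this measure neither striated tissue was the closest match of the other.

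The opposite set comprised regions that the other organs share and striated muscle lacks. Of 8683 regions with H3K27ac in all 12 other libraries, 155 (1.79%) had a peak in at most 1 of the 4 muscle libraries and 59 in none. Apart from these 59, the 155 had their peak in 1 heart library (75 regions) or 1 skeletal muscle library (21 regions). The 155 became 417 or 434 without heart replicate 1 or 2, and 69 when each list was limited to its top 20000 peaks. When a heart library was left out, the limit of 1 muscle library stayed. Regions with peaks in both heart libraries and no skeletal muscle library (243 with all libraries) then counted as lacking, so 417 and 434 follow a looser rule. Absence from skeletal muscle with peaks in both heart libraries was found at 243 regions, and absence from heart with peaks in both skeletal muscle libraries at 31. Of the 155, 74 had H3K4me3 in at least 1 muscle library and 45 in all 3, so H3K4me3 was called there without reproducible H3K27ac. H3K4me3 overlapped 36.8% of them in heart and 38.7% in skeletal muscle, against 56.8% ± 7.81 (SD, n = 6) in the other tissues. The difference of -19.0 percentage points gave an exact permutation p of 0.0357, adjusted over 6 tests 0.0714. H3K27ac of the same tissues chose these regions, so a lower share in muscle was favoured in advance, and no conclusion is drawn from the p-value.

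Starting from H3K4me3, 33 (0.251%) of 13124 regions with a peak in all 3 muscle libraries had one in at most 1 of the 12 other H3K4me3 libraries, and 24 had one in none. Of the 33, 13 had H3K27ac in all 4 muscle libraries and 7 had it in none. In 6 of the 13, H3K27ac was also in at most 1 other library.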

How the data were processed

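Per the labels, ChIP-seq used antibodies ab4729 (H3K27ac) and ab8580 (H3K4me3). Tools listed, per the submitters' processing notes, were MACS2 2.1.1.20160309, Bowtie 1.1.2, bedtools 2.26 and SAMtools 1.3.1. The authors deposited 1 narrowPeak list per library. The deposited fold enrichment is a ratio and was used only to rank peaks within a list. The deposited −log10 q was used for a stricter alternative. Input samples are not analysed here, and their role in peak calling is not stated in these sources. Peak names give calJac3.

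Intervals were merged and overlapped (at least 1 bp) with Python 3.11.15, numpy 2.4.6, pandas 2.3.3 and scipy 1.17.1. Code was tested on simulated intervals. Tissues were the unit of the exact permutation tests, except in 2 alternatives with libraries as units. Regions were named by position by 3 rules: among regions with no other library, the 6 largest loci and the 6 highest-ranked of each class, and, among all 205, the 6 with H3K4me3 in all muscle and no other libraries. The members and lists were chosen with earlier results of these data known. The gene lists, markers and motifs drawn up for this work were not tested, since no calJac3 annotation or genome was used.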

Additional observations from a re-analysis of the deposited data

How the results depend on the processing

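The size of the shared set and its enhancer-like share moved when a heart H3K27ac list was left out. Leaving out each library in turn gave 121 to 339 regions with no other library, 210 to 526 with at most 1, an enhancer-like share of 57.3 to 76.6%, and 160 to 434 regions of the other tissues lacking in muscle. Only heart replicates 1 and 2 moved these counts by over 1.5 times (339 and 277, 526 and 445, 417 and 434), and the share moved to 72.4%, 70.8% and, without H3K4me3 replicate 2 of skeletal muscle, 76.6%. The share of regions restricted to the pair differed by -0.14 to 2.31 percentage points and turned negative without either pancreas or stomach library, colon replicate 2 or liver replicate 1. The H3K4me3 difference was 8.82 to 23.0 percentage points. It was 17.9 (exact permutation p = 0.143, the smallest allowed) without the heart H3K4me3 library, which leaves 1 muscle tissue. The enhancer overlap difference was -4.86 (without heart replicate 2) to 5.17 over 30 omissions; without the heart H3K4me3 library it could not be computed. The 20000 strongest peaks gave 134 regions, an enhancer-like share of 50.7% and 69 regions lacking in muscle. Bases common to the 4 muscle lists gave 186 regions with no other library, and requiring H3K4me3 in every muscle library gave an enhancer-like share of 90.2%. The H3K4me3 difference was 13.5 to 17.5 under the 8 other alternatives, all at an exact permutation p of at most 0.0357. In 2 of these, libraries and not tissues were the units, so that libraries of 1 tissue count as independent (exact permutation p = 0.0022, and 0.0051 with a replicate block, where the difference was 13.7). Under every alternative H3K27ac of the same tissues chose the regions, so no conclusion is drawn from these p-values. Replicate numbers were not taken as pairs: correlations of same-numbered deviations were -0.011 to 0.042 for H3K27ac (28 tissue pairs) and 0.008 to 0.198 for H3K4me3 (4 of 21 above 0.1). Orders of partner tissues with fewer peaks or heart libraries were added after seeing the data. Each omission of an H3K27ac library also changed a rule, because 1 library fewer was required of its tissue or counted among the others. For regions lacking in muscle, the limit of 1 stayed while fewer muscle libraries were counted. Values under these omissions therefore do not keep to a fixed rule. The cause of the shifts was not tested. Depth is unknown, so no detection limit was set.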
